A study of Mus musculus with 14 samples.

Results

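The 30 genes described here encode the enzymes of cholesterol synthesis (18 genes), the regulators of that pathway (6 genes) and the enzymes that make and desaturate fatty acids (6 genes). They were matched by gene symbol, and all 30 were found among the 54532 genes listed for liver and among the 16481 genes listed for pancreatic stellate cells (PSCs). Msmo1 is listed under its older symbol Sc4mol in the PSC data and was matched by its Ensembl identifier. All 30 also passed the filter on low values, being among the 15118 genes tested in liver and the 15145 tested in PSCs.

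The liver donors had been grafted with KPCY cells in the pancreatic tail 20 days earlier. KPCY is a pancreatic cancer line from mouse that carries a yellow fluorescent tracer. Every liver mouse carried such a graft, whose cells have functional TRPV4, and no liver from a mouse without a tumor was analysed here. The 3 groups were WT (n = 2), TRPV4-KO (n = 3) and WT given GSK219 (n = 3). The animals called WT carry floxed Piezo1 alleles, the TRPV4-KO is a global Trpv4-/- allele, and GSK219 is the TRPV4 antagonist GSK2193874, gavaged daily at 10 mg/kg. Mice were 8 to 12 weeks old, both sexes were used, and neither a vehicle gavage of WT mice nor feeding and hour of collection is given in the sources used here. In a separate experiment, mouse PSCs cultured on Matrigel with serum received 25 μM Yoda1, a chemical agonist of the PIEZO1 channel, or its solvent DMSO (n = 3 each). Each replicate number is one preparation that received both treatments, and the treatment lasted 24 hours by the study's methods and 72 hours by a figure legend. Nothing beyond the word replicate in the labels says whether PSC preparations came from separate animals, so p-values measure the spread between these samples.

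Cholesterol is built from acetyl-CoA through mevalonate, farnesyl diphosphate, squalene and lanosterol. When membrane sterol is low, SCAP escorts the SREBP transcription factors from the endoplasmic reticulum to the Golgi for cleavage, and the INSIG proteins hold this step back when sterol is plentiful. SREBP-2 mainly drives the sterol enzymes and SREBP-1c, together with insulin, the fatty acid enzymes, and in liver both branches follow feeding and the time of day.

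Known SREBP-responsive promoters combine a sterol regulatory element with neighbouring NF-Y and Sp1 sites. In RefSeq promoters of build GRCm38.p6, 25 of the 30 genes had an entry, and the 250 bases before the start nearest to the deposited gene start were searched on both strands. The letters TCACNCCAC (sterol regulatory element) stood in 1 of these 25 promoters, against 1.05% of all 32851 promoters. CCAAT (NF-Y) stood in 18 of 25, against 33.8% of all, and GGGCGG (Sp1) also in 18 of 25, against 32.7%. CACGTG (E-box) stood in 3 of 25, against 6.02%. The 4 promoters below belong to genes with the lowest or among the highest TRPV4-KO to WT ratios in liver, and capitals mark every match to these 4 motifs on either strand. They lie at chr13:119690101-119690350 on the plus strand (Hmgcs1), chr5:114444019-114444268 on the plus strand (Mvk), chr1:121332590-121332839 on the minus strand (Insig2) and chr11:120824548-120824797 on the minus strand (Fasn), each read 5′ to 3′ toward the gene.
Hmgcs1: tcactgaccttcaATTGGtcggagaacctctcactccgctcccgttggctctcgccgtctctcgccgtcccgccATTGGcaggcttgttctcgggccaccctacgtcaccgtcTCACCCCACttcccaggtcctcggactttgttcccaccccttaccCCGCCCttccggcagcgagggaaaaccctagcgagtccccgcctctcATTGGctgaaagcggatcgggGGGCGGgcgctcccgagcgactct
Mvk: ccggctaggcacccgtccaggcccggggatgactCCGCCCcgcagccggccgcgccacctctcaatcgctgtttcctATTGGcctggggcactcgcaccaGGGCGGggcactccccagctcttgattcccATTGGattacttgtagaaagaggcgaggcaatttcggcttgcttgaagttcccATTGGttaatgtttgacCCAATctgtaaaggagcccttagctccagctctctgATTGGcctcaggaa
Insig2: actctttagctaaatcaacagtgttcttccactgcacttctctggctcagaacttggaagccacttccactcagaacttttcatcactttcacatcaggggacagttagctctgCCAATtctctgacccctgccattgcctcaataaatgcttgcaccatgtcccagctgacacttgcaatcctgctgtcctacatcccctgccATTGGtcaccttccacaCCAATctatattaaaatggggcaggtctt
Fasn: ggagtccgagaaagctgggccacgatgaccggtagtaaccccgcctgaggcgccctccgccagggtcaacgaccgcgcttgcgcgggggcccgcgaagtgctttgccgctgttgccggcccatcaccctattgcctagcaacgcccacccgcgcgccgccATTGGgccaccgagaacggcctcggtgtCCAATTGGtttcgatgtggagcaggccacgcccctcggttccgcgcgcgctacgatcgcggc
Hmgcs1 carries the sterol regulatory element letters 137 bases before its start, between CCAAT matches at 176 and 45. Mvk holds 5 CCAAT and 2 GGGCGG matches, Insig2 holds 3 CCAAT matches at the first of its 3 RefSeq starts, and the 3 CCAAT matches of Fasn include a pair that overlap. These matches are letters only, and no binding was measured here.

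Library depth was similar, with 15567031 to 17395299 counts per liver and 27312894 to 39070539 recovered reads per PSC library, so sampling error was small beside the spread between animals (biological coefficient of variation 28.3% in the liver fit). One liver of each group held Xist reads and no Y-linked reads (WT 1, TRPV4-KO 3 and GSK219 3). Hepatocyte markers led all livers (Alb 31636 to 74029 CPM, the count relative to the TMM-scaled library total). In PSCs, Col1a1 reached 213908 to 463416 and Acta2 27293 to 133472 in deposited units, whereas Gfap, a defining PSC marker, was not among the listed genes, and epithelial Krt19 was present at 2882 to 6221.

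In livers, levels per kilobase of transcript spanned a wide range. Scd1, the stearoyl-CoA desaturase, was the highest of the 30 with a mean of 1159 CPM per kb, followed by Insig1 at 146, and Fdps, the farnesyl diphosphate synthase, was lowest at 3.00. Fdps shares 26.7% of its exon bases with a gene on the same strand (Gm43738), so its reads may have been split by the counting. In PSCs, per kilobase, Acly (ATP citrate lyase) led at 75.2, then Fasn (fatty acid synthase) at 44.6 and Scd1 at 43.0, and Tm7sf2, a sterol reductase, was lowest at 0.656.

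The first question was how these genes stood in livers without TRPV4. By edgeR's quasi-likelihood test, none of the 30 passed an adjusted p under 0.05 in TRPV4-KO against WT, where 0.126% of all genes tested were called higher and 0.165% lower. At an unadjusted p under 0.05, 2 were higher (Elovl6 and Sc5d) and 4 were lower (Hmgcs1, Mvk, Insig2 and Dhcr7), where 1150 and 1436 of all 15118 genes tested were. DESeq2, which called 2.28% of genes higher and 3.22% lower, called 3 of the 30 lower (Hmgcs1, Mvk and Insig2) and none higher. The median log2 ratio of TRPV4-KO over WT was -0.32 over the 18 cholesterol enzymes, with 2 above zero, and 0.50 over the 6 fatty acid enzymes, with 6 above zero, against a median of 0.01 over all genes tested. The cholesterol median rested in large part on 2 livers, being -0.10 without WT replicate 1 and -0.11 without TRPV4-KO replicate 3, and the fatty acid median was 0.29 without WT replicate 1 and 0.48 without TRPV4-KO replicate 3. In 15 of the 30 genes the libraries of the 2 groups did not overlap, 7 higher in TRPV4-KO and 8 lower, where 15.5% and 17.7% of all genes did so. Of the 6 fatty acid enzymes 4 were among the 7, and of the 18 cholesterol enzymes 5 were among the 8.

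**Figure D1:**
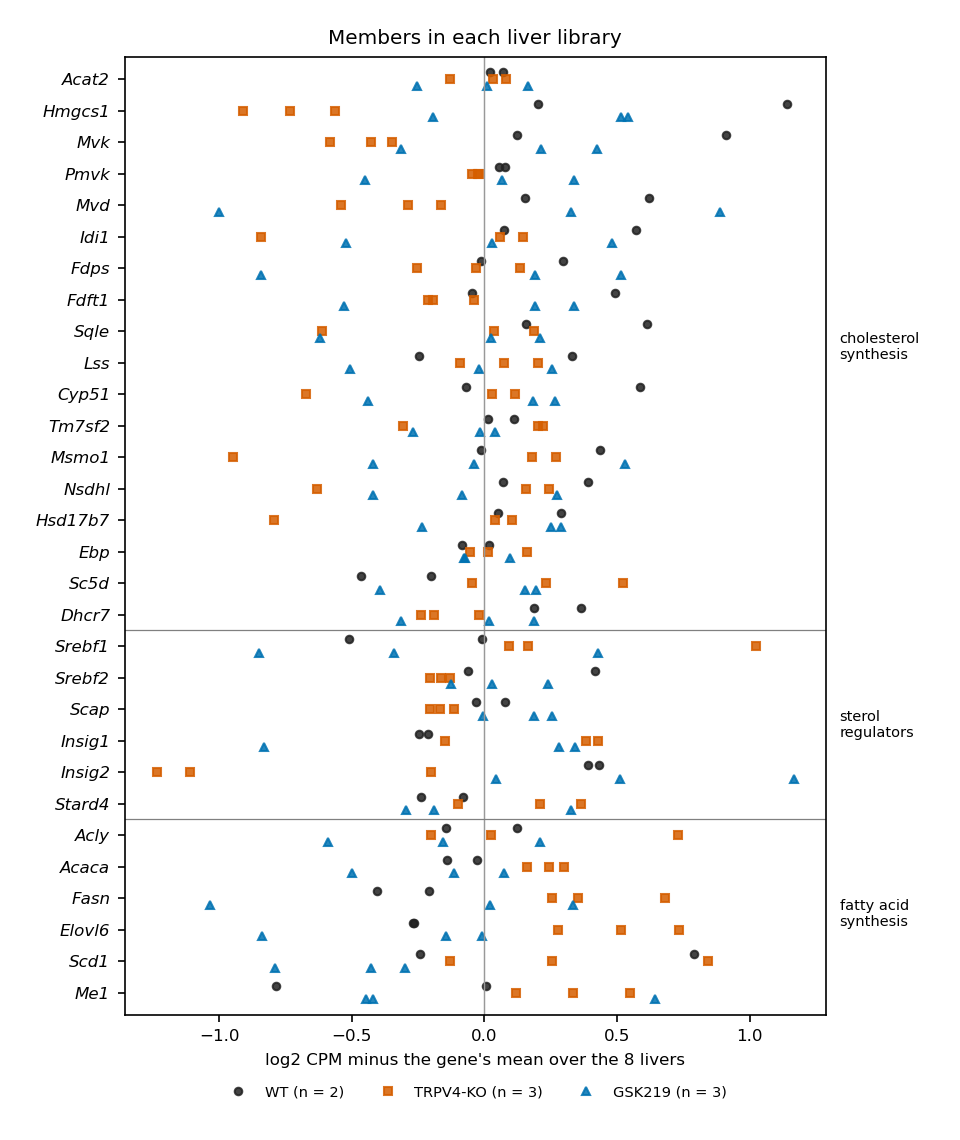
Each point is one liver library, placed by its log2 CPM minus the mean of that gene over the 8 livers (x axis, log2 units), for the 30 genes in rows grouped as cholesterol synthesis, sterol regulators and fatty acid synthesis. Hmgcs1, Mvk and Insig2 show the 3 TRPV4-KO squares left of both WT circles, while Fasn, Elovl6 and Me1 show them to the right.

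At the entry to the mevalonate pathway, Hmgcs1, the cytosolic HMG-CoA synthase, was at 808 and 422 CPM in the WT livers. It was at 195, 221 and 248 CPM in the TRPV4-KO livers and at 534, 321 and 524 CPM in the GSK219 livers. The WT livers differed from each other nearly as much as the groups did, yet every TRPV4-KO value lay below every value of the other 2 groups. The log2 ratio of TRPV4-KO over WT was -1.47 (SE 0.30), with an adjusted p of 0.099 by edgeR and 0.00045 by DESeq2. With a sex term in edgeR, under which 1.24% of all genes were called higher and 2.3% lower, the ratio was -1.34 (SE 0.24, adjusted p 0.031). Without TRPV4-KO replicate 3, where 3.62% were called higher and 5.02% lower, it was -1.57 (SE 0.36, adjusted p 0.046). That was the only call among the fits that left out 1 liver each, which ranged from -1.88 to -0.94 (adjusted p 0.55, without WT replicate 1). With the replicate number as a block, where 0.906% were called higher and 2.61% lower, Hmgcs1 and Insig2 were the 2 of the 30 called. This block joins livers that share only a number, whose deviations correlated from -0.48 to 0.58. An antisense gene (Gm48342) covers 12.1% of Hmgcs1 exon bases, and whether the counting used strand is not given in the sources used here.

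Mvk, mevalonate kinase, acts downstream of Hmgcs1. Its values were 81.8 and 47.4 CPM in WT, 29.1, 32.3 and 34.2 CPM in TRPV4-KO, and 58.3, 35.0 and 50.5 CPM with GSK219. The TRPV4-KO livers were again the lowest in every case, with a log2 ratio over WT of -1.02 (SE 0.26, adjusted p 0.14 by edgeR and 0.018 by DESeq2), and of -0.58 (adjusted p 0.72) without WT replicate 1. Mvk needs a further caveat, because it lies on chromosome 5 and ends 162 kb before Trpv4. Alleles linked to the Trpv4-/- allele and the loss of TRPV4 cannot be told apart there. Cyp51 and Insig1 are also on chromosome 5, 110.5 and 86.6 Mb from Trpv4. At every gene, other differences between the floxed Piezo1 and the Trpv4-/- mice likewise cannot be told apart from the loss of TRPV4. Trpv4 itself was low in liver, with 43 and 53 counts in WT, 15, 5 and 23 in TRPV4-KO and 20, 30 and 36 with GSK219, a log2 ratio of TRPV4-KO over WT of -1.71 (adjusted p 0.16). Reads remained in the TRPV4-KO livers, and which part of the gene the allele lacks could not be checked. Of 49 genes tested within 1000 kb of Trpv4, 1 was called lower in TRPV4-KO (Rplp0, log2 ratio -1.37, adjusted p 0.0049, named after its values were seen) and 0 higher. Mmab, a cobalamin enzyme gene that starts 209 bases before Mvk on the other strand (also named after its values were seen), was at 47.9 and 44.0 CPM in WT, 27.3, 31.0 and 34.3 CPM in TRPV4-KO, and 54.5, 38.4 and 54.6 CPM with GSK219. Its log2 ratio of TRPV4-KO over WT was -0.57 (SE 0.18, adjusted p 0.18). Over the whole window, 28 of the 49 genes had a ratio below zero.

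**Figure D2:**
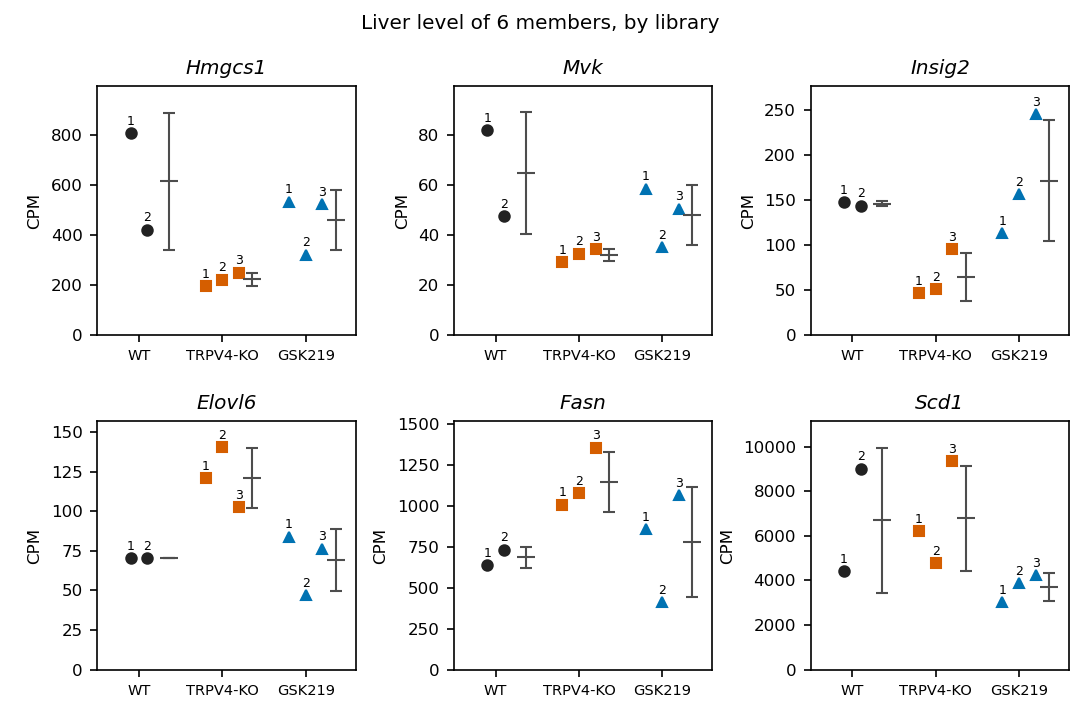
CPM (y axis, linear from 0) of 6 genes in each liver, with the replicate number above each point and the mean ± SD of each group to the right of its points (WT n = 2, TRPV4-KO n = 3, GSK219 n = 3). The TRPV4-KO livers hold the 3 lowest values of Hmgcs1, Mvk and Insig2 and the 3 highest of Elovl6, and the GSK219 livers hold the 3 lowest of Scd1.

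The remaining mevalonate and squalene enzymes differed less. Mvd, mevalonate diphosphate decarboxylase, was at 49.9 and 36.0 CPM in WT, 26.6, 29.0 and 22.3 CPM in TRPV4-KO, and 40.7, 16.2 and 60.0 CPM with GSK219, so that the GSK219 livers enclosed all others. Its log2 ratio of TRPV4-KO over WT was -0.73 (SE 0.45, adjusted p 0.46). Acat2, which joins acetyl-CoA units, stayed between 62.5 and 83.5 CPM in all 8 livers, although a near-identical neighbour, Acat3, may make its reads uncertain, which was not checked. Pmvk, the next kinase, gave log2 ratios of -0.10 in TRPV4-KO and -0.05 with GSK219, each below its SE of 0.20. Idi1 (isopentenyl diphosphate isomerase) had log2 ratios of -0.49 and -0.29, Fdps -0.19 and -0.09, and Fdft1 (squalene synthase) -0.39 and -0.20, in TRPV4-KO and GSK219 respectively, with SEs from 0.25 to 0.36. None of these was distinguishable from the spread between livers.

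In the steps from squalene to cholesterol, 1 liver set much of the TRPV4-KO values. Msmo1, the sterol C4 oxidase, was at 315 and 231 CPM in WT and at 264, 280 and 121 CPM in TRPV4-KO. Cyp51, lanosterol demethylase, was at 364 and 231 CPM in WT and at 247, 263 and 152 CPM in TRPV4-KO. TRPV4-KO replicate 3 was the lowest TRPV4-KO liver in both, and it was above the gene mean in 2 of 18 cholesterol enzymes, with a median log2 distance of -0.33 where TRPV4-KO replicates 1 and 2 had 0.00 and 0.09. Sqle (squalene epoxidase), Nsdhl and Hsd17b7 followed the same pattern, with log2 ratios of TRPV4-KO over WT of -0.49, -0.27 and -0.34 and SEs of 0.27 to 0.30. Lss (lanosterol synthase), Tm7sf2 and Ebp, the sterol isomerase, lay near zero at 0.00, 0.00 and 0.08.

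The last enzymes of the pathway lay on different sides of zero. Dhcr7, the final reductase to cholesterol, was at 184 and 163 CPM in WT, 126, 141 and 121 CPM in TRPV4-KO, and 163, 115 and 145 CPM with GSK219. Its log2 ratio of TRPV4-KO over WT was -0.43 (SE 0.16, adjusted p 0.23). Sc5d, the sterol desaturase just before it, went the other way, at 331 and 397 CPM in WT against 443, 537 and 655 CPM in TRPV4-KO and 522, 348 and 508 CPM with GSK219. Its log2 ratio was 0.58 (SE 0.23, adjusted p 0.25), and neither gene passed the test.

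Among the regulators, Insig2 showed the largest difference. It was at 147 and 143 CPM in WT, at 46.3, 50.5 and 94.8 CPM in TRPV4-KO, and at 113, 156 and 245 CPM with GSK219. The WT livers were almost equal, all 3 TRPV4-KO livers lay below every other liver, and the Xist-bearing liver was the highest of each group. The log2 ratio of TRPV4-KO over WT was -1.18 (SE 0.38, adjusted p 0.19 by edgeR and 0.032 by DESeq2). With the sex term it was -1.17 with an SE of 0.22 (adjusted p 0.037), and without TRPV4-KO replicate 3, which holds the highest of the 3 values, it was -1.59 (SE 0.33, adjusted p 0.039). This was the only call among the fits that left out 1 liver each, whose adjusted p reached 0.69. Insig1, which unlike Insig2 is itself an SREBP target, was at 375 and 366 CPM in WT and at 393, 586 and 567 CPM in TRPV4-KO, a log2 ratio of 0.47 (SE 0.34, adjusted p 0.52). The 2 INSIG genes therefore lay on opposite sides of zero in TRPV4-KO, with only the lower one called by any setting.

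Srebf1, which encodes SREBP-1, was at 363 and 514 CPM in WT and at 553, 580 and 1054 CPM in TRPV4-KO, a log2 ratio of 0.73 (SE 0.42, adjusted p 0.43), with its highest value in replicate 3. Srebf2 was at 169 and 121 CPM in WT and at 113, 110 and 116 CPM in TRPV4-KO (log2 ratio -0.36, SE 0.16, adjusted p 0.31). The TRPV4-KO values of Srebf2 were far closer to each other than the WT values were. Scap had log2 ratios of -0.18 (SE 0.12) in TRPV4-KO and 0.13 (SE 0.12) with GSK219, and Stard4, a cytosolic sterol carrier, of 0.33 and 0.13 (SE 0.21 each).

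Of the 6 fatty acid enzymes, 4 (Fasn, Elovl6, Me1 and Acaca) had every TRPV4-KO liver above both WT livers, as 15.5% of all genes did. Fasn was at 639 and 732 CPM in WT and at 1009, 1080 and 1357 CPM in TRPV4-KO. The GSK219 livers lay on both sides of the WT values, at 858, 413 and 1067 CPM. The log2 ratio of TRPV4-KO over WT was 0.74 (SE 0.35, adjusted p 0.33). Elovl6, which extends palmitate, was at 70.3 and 70.4 CPM in WT, 121, 141 and 103 CPM in TRPV4-KO, and 84.0, 47.2 and 76.5 CPM with GSK219. Its log2 ratio was 0.79 (SE 0.24, adjusted p 0.18), and DESeq2 with all livers gave an adjusted p of 0.054. A DESeq2 fit of the 2 groups alone, chosen after the data had been seen, called 1.72% of all genes higher and 2.92% lower. It called Elovl6 (adjusted p 0.007) and Fasn (adjusted p 0.0077) higher beside the same 3 lower genes. Me1, the malic enzyme that supplies NADPH, was at 60.7 and 105 CPM in WT and at 132, 153 and 114 CPM in TRPV4-KO, and Acaca, acetyl-CoA carboxylase, at 119 and 129 CPM against 162, 155 and 147 CPM. Their log2 ratios were 0.68 (SE 0.38) and 0.32 (SE 0.17), with adjusted p values of 0.41 and 0.37. Acly and Scd1 overlapped between groups, with log2 ratios of 0.25 (SE 0.31) and 0.02 (SE 0.36), and that of Scd1 was -0.43 without WT replicate 1 and 0.60 without WT replicate 2.

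The second question was how the antagonist compared with WT. Since both comparisons use the same 2 WT livers, their ratios are not independent and are given side by side without a test of likeness. In GSK219 against WT no gene of the 15118 tested was called by edgeR (0% in either direction), so none of the 30 was. By the same test 1 of the 30 had an unadjusted p under 0.05, where 1242 of the 15118 did. DESeq2, which called 0.206% of genes higher and 0.557% lower, called none of the 30. That gene was Scd1, at 4407 and 9005 CPM in WT and at 3014, 3871 and 4228 CPM with GSK219, a log2 ratio of -0.86 (SE 0.35, adjusted p 0.58) that was -0.24 without WT replicate 2 and -1.28 without WT replicate 1. It was also the only 1 of the 30 without overlap between these groups, where 11.7% of all genes were higher and 15.6% lower without overlap. The WT livers differ by about as much as the groups, and the TRPV4-KO livers, at 6217, 4762 and 9349 CPM, spanned about the same range as WT. The median log2 ratio of GSK219 over WT was -0.11 over the 30 genes. It turned to 0.08 without WT replicate 1, the highest liver in 11 of the 30 genes, and to 0.05 without GSK219 replicate 2, the lowest liver in 15 of them.

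**Figure D3:**
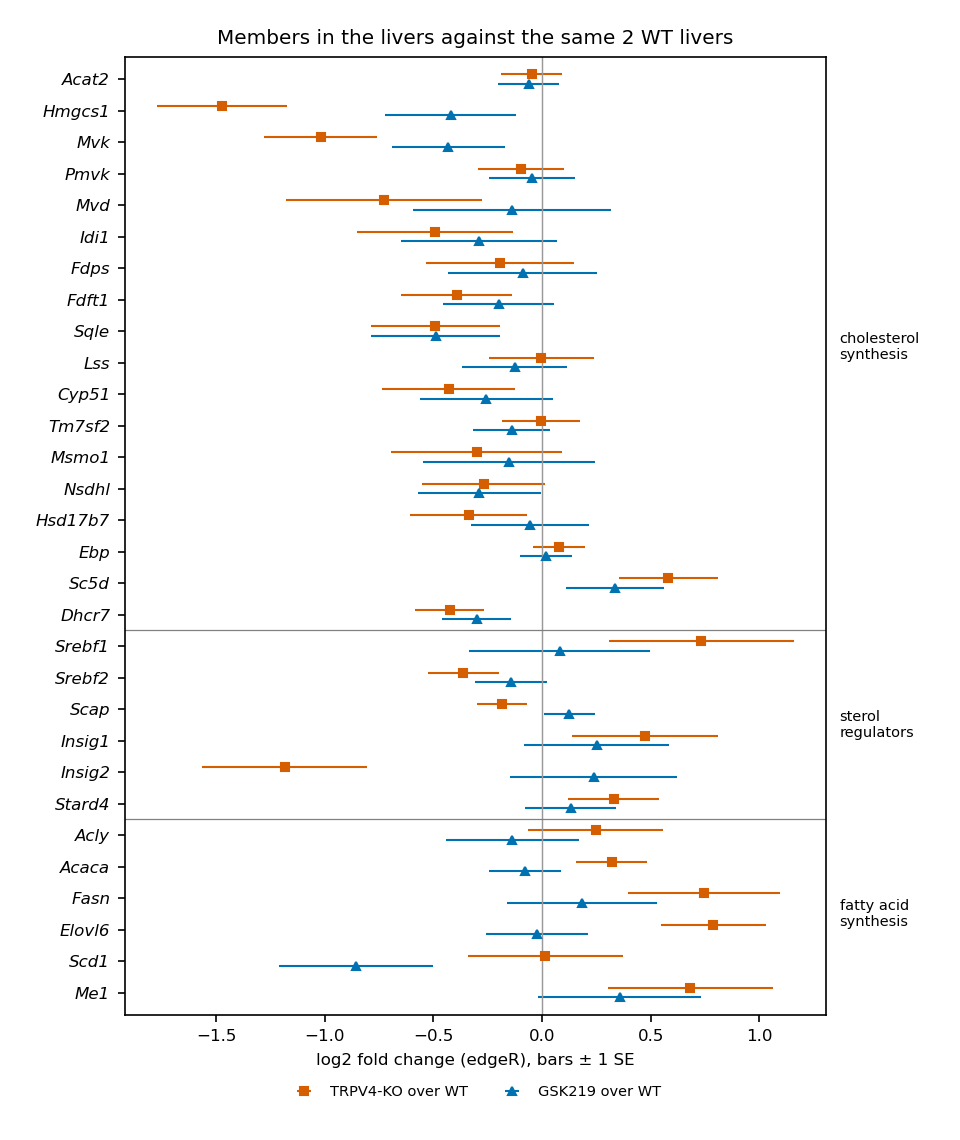
Log2 fold change (x axis) of TRPV4-KO over WT (squares) and of GSK219 over WT (triangles) for the 30 genes in rows, with bars of ± 1 SE from the edgeR fit of all 8 livers. Both series use the same 2 WT livers, and the largest gaps between square and triangle are at Insig2 (-1.18 and 0.24) and Hmgcs1 (-1.47 and -0.42).

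Whether the knockout and the antagonist differed was tested directly. By edgeR 0 of the 30 genes were called in GSK219 against TRPV4-KO, where 0.0463% of all genes were called higher and 0.0595% lower. An unadjusted p under 0.05 was reached by 7 of the 30, and by 925 of all 15118 genes tested (399 higher and 526 lower). The 4 higher with GSK219 were Insig2, Hmgcs1, Mvk and Scap, and the 3 lower were Elovl6, Scd1 and Acaca. The log2 ratio of GSK219 over TRPV4-KO was 1.42 for Insig2 (SE 0.35, adjusted p 0.43 by edgeR and 0.0041 by DESeq2) and 1.05 for Hmgcs1 (SE 0.27, adjusted p 0.45 by edgeR and 0.027 by DESeq2). Neither was called by edgeR in any fit that left out 1 liver, with adjusted p values of at least 0.058 for Insig2 and 0.17 for Hmgcs1. DESeq2 called no other of the 30, at 0.431% of genes called higher and 0.471% lower. With a sex term Insig2 was called (log2 ratio 1.43, SE 0.20, adjusted p 0.043), where 0.132% of genes were higher and 0.165% lower. Insig2 was also called with the replicate number as a block, where 0.0728% were higher and 0.0595% lower, although same-numbered livers share only a number. DESeq2 on the 2 groups alone called the same 2 genes as with all livers, at 0.39% higher and 0.383% lower. Elovl6 had a ratio of -0.81 (SE 0.21, adjusted p 0.45), and all 6 fatty acid enzymes had ratios below zero, from -0.87 to -0.32. In this comparison 5 of the 30 were higher and 3 lower without overlap, where 4.35% and 5.85% of all genes were.

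Levels of other gene groups are given beside these values, and of the lists that follow only the neutrophil and clock lists held genes called by edgeR without a block in TRPV4-KO against WT, and none held a gene called in GSK219 against WT. With the replicate number as a block, 9 of 11 neutrophil and 6 of 8 macrophage genes tested were called lower in TRPV4-KO. This block also called 1 ductal and 1 stellate gene lower and 1 hepatocyte and 3 clock genes higher there, and 3 neutrophil genes lower with GSK219. It joins livers that share only a number, so no pairing of animals stands behind these calls. Summed neutrophil markers (12 genes, among which S100a8, Cxcr2 and Cd177 were called lower in TRPV4-KO) were at 64.8 to 80.9 CPM in WT, 1.77 to 8.05 CPM in TRPV4-KO and 2.64 to 7.11 CPM with GSK219. Macrophage markers (8 genes) were at 1494 to 1692, 424 to 929 and 456 to 1071 CPM, and hepatocyte markers (11 genes matched of 12) at 63166 to 71037, 87226 to 107220 and 84762 to 94981 CPM, in the same order. Alb was the largest part of the hepatocyte sum, and the median log2 ratio of TRPV4-KO over WT of the 11 genes was 0.29, with 10 above zero. Stellate and fibroblast markers (12 genes) were at 397 to 597, 142 to 318 and 189 to 298 CPM, and ductal markers (8 genes) at 654 to 754, 444 to 702 and 492 to 619 CPM. Most of the ductal sum was Krt8 (260 to 392 CPM) and Krt18 (136 to 285 CPM), whereas Krt19 was at most 2.72 CPM. In TRPV4-KO 2 of the 8 ductal genes had a ratio above zero, so the sum does not speak for each of them. Ly6g, a defining neutrophil marker, was at most 0.175 CPM in any liver, and the acinar markers Prss1 and Amy2a5 were at 0 in all of them. The 16 clock genes were at 687 to 781 CPM in WT, 1115 to 1221 CPM in TRPV4-KO and 519 to 1097 CPM with GSK219, and Per1 was called higher in TRPV4-KO (log2 ratio 1.48, SE 0.21, adjusted p 0.039). The 16 fasting genes were at 7987 to 8188, 9450 to 10763 and 9456 to 11384 CPM, with none called. Of these genes 13 had a ratio over WT above zero in TRPV4-KO and 16 with GSK219, with median log2 ratios of 0.34 and 0.53. The part of cell composition, time of day or feeding in the values of the 30 genes was not tested, and in whole liver fewer cells of a type and less RNA per cell cannot be told apart.

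**Figure D4:**
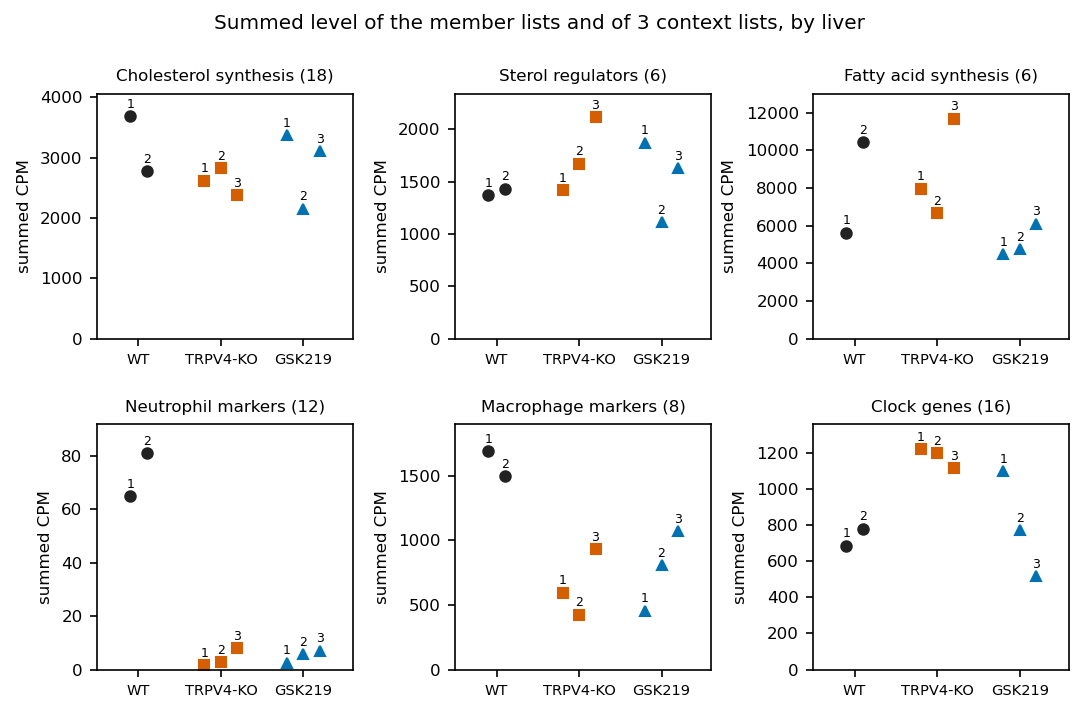
Summed CPM (y axis, linear from 0) of the 3 gene groups described here and of neutrophil markers, macrophage markers and clock genes in each liver, with replicate numbers above the points. Neutrophil markers separate WT (64.8 to 80.9) from both other groups (at most 8.05), and the clock genes separate WT (687 to 781) from TRPV4-KO (1115 to 1221), whereas the summed cholesterol enzymes overlap. The fatty acid sum is mostly Scd1.

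Neighbouring pathways in liver were read from lists of their own. Of 10 other sterol and isoprenoid genes tested, 16 genes of sterol efflux, storage and bile acid synthesis, and 27 other lipogenic genes, 0 were called by edgeR without a block in any of the 3 liver comparisons. Their median log2 ratios of TRPV4-KO over WT were 0.12, -0.02 and 0.17. With the replicate number as a block, 3 of these genes were called lower in TRPV4-KO. They were Soat1, which esterifies cholesterol (log2 ratio -1.39, adjusted p 0.049), the desaturase Scd2 (-1.24, adjusted p 0.036) and Pgd (-0.66, adjusted p 0.042). These calls rest on a block of livers that share only a number.

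The third question was how the 30 genes responded to Yoda1 in PSCs. By limma on log2 of the deposited value plus 1, 0 of the 30 were called, where 2.19% of all genes were called higher and 2.47% lower. At an unadjusted p under 0.05, 4 were higher with Yoda1 (Scd1, Scap, Tm7sf2 and Insig2) and 0 lower, where 1700 and 1735 of all 15145 genes tested were. With the preparation as a block, which removes differences between preparations, 5 of the 30 rose and 0 fell, where 8.68% of all genes were called higher and 9.55% lower. The 5 were Scd1 and Elovl6 of the fatty acid enzymes and Nsdhl, Tm7sf2 and Fdft1 of the cholesterol enzymes. DESeq2 on the recovered reads called 1 of the 30 (Scd1, adjusted p 0.0076), at 5.39% of genes called higher and 5.29% lower. EdgeR on these reads, at 2.24% higher and 2.31% lower, called 0, with 4 of the 30 and 3420 of all 15220 genes at an unadjusted p under 0.05. By limma without the Yoda1 library of preparation 3, where 3.18% were called higher and 3.87% lower, 1 was called (Scd1, adjusted p 0.021). The median log2 ratio over the 30 genes was 0.14, with 24 above zero, against -0.01 over all genes tested. Without the Yoda1 library of preparation 1 this median turned to -0.02.

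Scd1 was at 6145, 5350 and 5082 deposited units in DMSO and at 9791, 8164 and 6626 units with Yoda1, in preparations 1 to 3. Every Yoda1 library lay above every DMSO library, as in 5 of the 30 genes (Scd1, Tm7sf2, Mvd, Scap and Insig2) and 14.9% of all genes tested, whereas 0 of the 30 and 15.1% of all genes lay below without overlap. The log2 ratio was 0.55 (SE 0.15, adjusted p 0.091 without the block, and SE 0.07, adjusted p 0.0056 with it). Elovl6 was at 1895, 1591 and 1142 units in DMSO and at 2661, 2113 and 1368 units with Yoda1. Its treatments overlapped across preparations but not within them, and the log2 ratio was 0.39 (adjusted p 0.46 without the block and 0.011 with it).

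Fasn, by contrast, was at 17168, 16344 and 14995 units in DMSO and at 19694, 16909 and 11572 units with Yoda1. It was higher in preparations 1 and 2 and lower in preparation 3, a log2 ratio of -0.04 (SE 0.19, adjusted p 0.92). Acly and Acaca had log2 ratios of 0.02 (SE 0.06) and 0.06 (SE 0.13), and Me1 of 0.14 (SE 0.08). Scd1 and Elovl6 were thus the only fatty acid enzymes of the 6 called with the block of all 3 preparations, and the difference between genes was not tested.

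Among the cholesterol enzymes, Tm7sf2 was the least abundant and had the largest ratio, at 92.3, 88.6 and 108 units in DMSO and 139, 120 and 177 units with Yoda1 (log2 ratio 0.58, adjusted p 0.13 without the block and 0.03 with it). It shares 12.1% of its exon bases with Vps51 on the same strand. Nsdhl was at 648, 513 and 464 units in DMSO and at 903, 644 and 548 units with Yoda1 (log2 ratio 0.35, adjusted p 0.37 and 0.027). Fdft1, which overlaps Ctsb on the other strand over 18.3% of its exon bases, was at 1551, 1318 and 1148 units and at 2127, 1593 and 1281 units (log2 ratio 0.30, adjusted p 0.42 and 0.034). Each of these genes was higher with Yoda1 in 3 of 3 preparations. Mvk was the only gene of the 30 lower with Yoda1 in all 3 preparations, at 723, 600 and 514 units in DMSO and 618, 528 and 431 units with Yoda1 (log2 ratio -0.22, adjusted p 0.49 without the block and 0.067 with it).

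Hmgcs1, the gene with the lowest ratio in TRPV4-KO livers, was at 3737, 3503 and 3194 units in DMSO and at 5206, 3315 and 2553 units with Yoda1, so that preparation 1 was higher and preparations 2 and 3 were lower. Idi1, Sqle, Cyp51, Msmo1, Insig1 and Stard4 were higher with Yoda1 in preparations 1 and 2 and lower in preparation 3. Mvd (log2 ratio 0.29), Lss (0.26), Pmvk (0.31), Fdps (0.18), Sc5d (0.19) and Hsd17b7 (0.12) were higher in every preparation without passing the test. Acat2, Ebp and Dhcr7 had log2 ratios of -0.08, -0.09 and -0.16. Of the regulators, Scap (0.17, SE 0.05) and Insig2 (0.17, SE 0.06) had adjusted p values of 0.13 and 0.17, and Srebf1 and Srebf2 had ratios of 0.04 and 0.01.

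**Figure D5:**
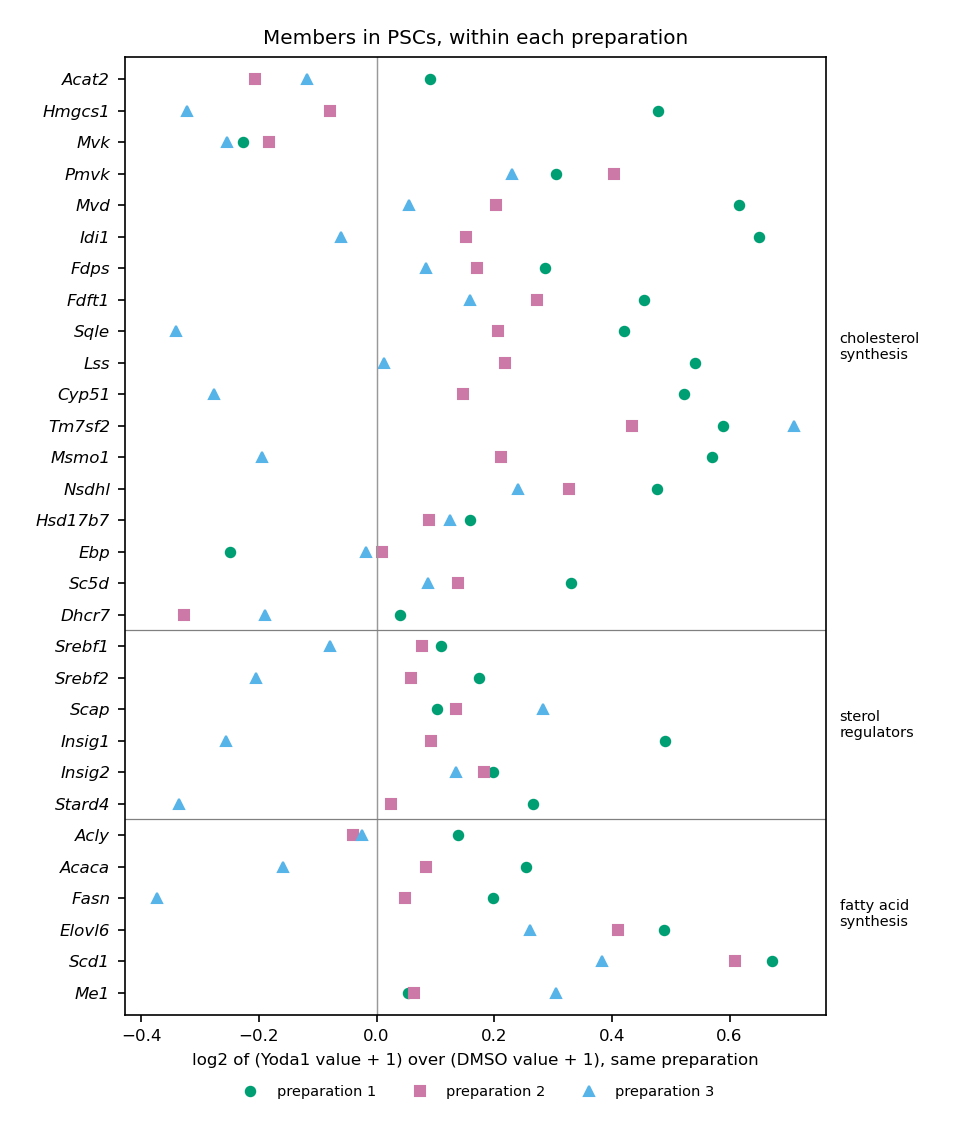
Log2 ratio of Yoda1 over DMSO within each PSC preparation (x axis, from deposited values plus 1) for the 30 genes in rows. Circles (preparation 1) are above zero for 28 of 30 genes, squares (preparation 2) for 25 and triangles (preparation 3) for 14.

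The preparations differed in how these genes responded. The log2 ratio was above zero in 28 of the 30 genes in preparation 1, 25 in preparation 2 and 14 in preparation 3, with medians of 0.30, 0.14 and -0.02, whereas over all genes tested 48.6%, 49.5% and 48.7% were above zero. Preparation 1 gave the largest ratio in 24 of the 30 genes and in 34.0% of all genes tested, and preparation 3 the smallest in 22 of the 30 and in 40.2% of all. In 14 of the 30 genes the ratio was above zero in every preparation and in 1 below zero, where 27.2% and 29.4% of all genes were. Fits with the block and without 1 preparation were chosen after the data had been seen. Without preparation 1, 2 of the 30 were called higher and 0 lower, where 6% and 5.88% of all genes were. Without preparation 2, 0 were called, where 1.12% and 1.28% of all genes were. In that fit 5 of the 30 had an unadjusted p under 0.05 by limma, where 3058 of all 14778 genes tested did. Without preparation 3, 16 were called higher and 1 lower, where 14.8% and 17% of all genes were. Summed ductal markers (8 genes) were at 76358, 76167 and 103971 units in DMSO and 73627, 90960 and 149090 units with Yoda1 in preparations 1 to 3. Acinar markers (6 genes listed) were at 1051, 3693 and 6272 units and at 1298, 4605 and 12545 units. Preparation 3 was thus the highest in both, most of all with Yoda1, and the part of these cells in the values of the 30 genes was not tested. The ductal genes went both ways with Yoda1, with 3 of 8 above zero. Only Spp1 among them was called by limma without the block (log2 ratio 1.71, SE 0.19, adjusted p 0.012). With the block 2 ductal genes were called higher and 1 lower. Stellate and fibroblast markers (11 genes listed) were at 914473 to 1015400 units in DMSO and 452400 to 564875 units with Yoda1. The list went both ways, with 6 of 11 genes called lower and 0 higher without the block, and 8 lower and 2 higher (Pdgfra and Fap) with it.

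Genes beside the 30 in the same pathways were called in PSCs. Of 24 other lipogenic genes tested, limma called 5 higher and 0 lower, and with the preparation as a block 8 higher and 0 lower. Acss2, which makes acetyl-CoA from acetate, was at 121, 132 and 126 units in DMSO and at 254, 255 and 444 units with Yoda1 (log2 ratio 1.27, SE 0.23, adjusted p 0.034). G6pdx and Pgd, the 2 NADPH-producing enzymes of the pentose phosphate pathway, rose by log2 ratios of 0.68 each (SE 0.06 and 0.09, adjusted p 0.0075 and 0.015). Acacb, the mitochondrial acetyl-CoA carboxylase, rose by 1.01 (SE 0.21, adjusted p 0.049, and 0.053 by edgeR on recovered reads) and Tecr, which completes fatty acid elongation, by 0.30 (SE 0.06, adjusted p 0.038). All 5 of these genes were higher with Yoda1 in 3 of 3 preparations. Of 10 other sterol and isoprenoid genes and 12 genes of sterol efflux and storage tested, 0 were called without the block, with median log2 ratios of -0.01 and 0.19. With the block, 2 of the sterol and isoprenoid genes fell, Acat1, the mitochondrial thiolase (log2 ratio -0.43, adjusted p 0.0086), and Pdss1 of ubiquinone synthesis (-0.35, adjusted p 0.043). In the efflux and storage list 2 rose with the block, the oxysterol receptor Nr1h2 (0.27, adjusted p 0.016) and the phospholipid acyltransferase Lpcat3 (0.29, adjusted p 0.031). Of 11 fasting genes tested, Acot1, an acyl-CoA thioesterase, rose without the block (log2 ratio 0.83, SE 0.14, adjusted p 0.026), and 5 rose with it, among them Pdk4, which restrains glucose oxidation (1.15, adjusted p 0.005).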

How the data were processed

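RNA-Seq libraries of mouse livers and PSCs were grouped by their labels. For livers, the authors deposited raw counts of reads per gene, and 28 of the 30 genes had the coordinates of GENCODE vM21 (GRCm38). For PSCs, the authors deposited a normalized signal, and 100% of its 98886 values lay within 0.1 of a whole read count after division by the library's smallest step, so reads were recovered. Labels name HISAT2 2.0.5 and Trim Galore; the counting tool is not given in the sources used here. No described sample matched 7 other count columns, which were not used. The authors also deposited log2 fold changes, standard errors, test scores and p-values of their own PSC comparison, which were not used.

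Analyses used R 4.3.3. Liver counts were fitted with edgeR 4.0.16 (TMM, minimum count 10, robust quasi-likelihood, all 8 livers), and PSC values with limma 3.58.1 (log2, pseudocount 1, value of at least 10 in 3 libraries), with Benjamini-Hochberg adjustment over all genes tested and a threshold of 0.05. PSC libraries of one preparation deviated together (correlations across genes 0.43, 0.26 and 0.53), so blocked values are given where they change a call or a count. Alternatives included DESeq2 1.42.0. Fits were tested on simulated data. The genes, lists and tests were chosen with earlier results of these data known. All 30 genes were named, with Trpv4 and, of each further list, at most 5 called genes per comparison with the smallest p. Genes of those lists called only with a block (among them Pdgfra and Fap), marker genes named for their level alone (Alb, Col1a1, Acta2, Gfap, Krt8, Krt18, Krt19, Ly6g, Prss1 and Amy2a5), Mmab and Rplp0 were named after their values were seen.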

Additional observations from a re-analysis of the deposited data

How the results depend on the processing

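With 2 WT livers and 3 samples in each other group, few samples stand behind each value. In TRPV4-KO against WT, the number of the 30 genes called lower was 0 by edgeR, 3 by DESeq2, 2 with the replicate block (Hmgcs1, adjusted p 0.038, and Insig2, 0.009), 2 with a sex term and 0 to 2 with one liver left out (2 without TRPV4-KO replicate 3). DESeq2 with only the 2 groups compared, chosen after the data had been seen, called 3 lower and 2 higher. In GSK219 against TRPV4-KO, the number called higher was 0 by edgeR, 2 by DESeq2, 1 with the replicate block (Insig2, adjusted p 0.014), 1 with a sex term and 2 by DESeq2 with only the 2 groups compared. Same-numbered livers correlated in their deviations from -0.48 to 0.58 (mean 0.14) and so share only a number. In PSCs, the number called higher was 0 by limma, 1 by DESeq2 on recovered reads, 5 with the replicate block, 0 to 1 with one library left out, and, chosen after the data had been seen, 0 to 16 with the block and one preparation left out (2 without preparation 1, 0 without preparation 2 and 16 without preparation 3), where the number called lower was 0 to 1. With the block and without preparation 3, Fasn reversed to 0.12 (adjusted p 0.047) from -0.04. Other scalings, pseudocounts and the filter gave 0 calls, as edgeR and limma without a block did. Asking also for a 2-fold change left the lower calls in TRPV4-KO and the higher calls in GSK219 against TRPV4-KO as they were in each fit, and took every PSC call and the 2 higher calls in TRPV4-KO to 0. Of 1920 single-gene values over all settings, 1874 stayed on their side of the threshold, 45 were newly called and 1 reversed. Of the 1874, 115 differed in sign while called in neither setting. The causes were not tested.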

Other observations

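Across the 8 livers regardless of group, WT replicate 1 held the highest value in 11 of the 30 genes and GSK219 replicate 2 the lowest in 15, where TRPV4-KO replicate 3 held the highest in 6 and the lowest in 6. The median log2 distance of the 18 cholesterol enzymes from their gene means was 0.38 in WT replicate 1 and -0.42 in GSK219 replicate 2. For the 6 fatty acid enzymes it was -0.25 and -0.54 in these livers and 0.48 in TRPV4-KO replicate 3, whose cholesterol enzymes stood at -0.33. In GSK219 replicate 1 the cholesterol enzymes stood at 0.25 and the fatty acid enzymes at -0.13, and in WT replicate 2 at 0.04 and -0.01.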
